A study of Drosophila melanogaster with 8 samples.

Results

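The genes described here are the cytochrome P450 genes of the Cyp4 clan of Drosophila melanogaster, measured in adult females with mutant Hr78 (DHR78), a nuclear receptor gene, and in their controls. They are the rows of the deposited table whose gene symbol starts with Cyp4 and a letter or with Cyp311, Cyp312, Cyp313, Cyp316 or Cyp318, without Cyp4g1. This rule took 28 of 12082 gene rows, and 3 further genes that it would take in the Release 6 annotation (Cyp313a2, Cyp313a5 and Cyp316a1) were not analysed here. All 28 members passed the filter on low counts.

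Cytochrome P450 enzymes hold a heme group with which they insert an oxygen atom into their substrates. Enzymes of the Cyp4 clan sit in the membrane of the endoplasmic reticulum and receive electrons from cytochrome P450 reductase, and in mammals many of them hydroxylate the end carbon of fatty acids. In insects the clan is large, and its members have been linked to hydrocarbon synthesis, pheromones and the breakdown of plant toxins and insecticides, while the substrates of most fly members are not known.

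Mutant flies carried btl>DHR78, that is Hr78 expressed by the driver of breathless (btl), the gene of the FGF receptor of the tracheae, together with the mutant allele pair DHR78[1]/[3], and the labels call them rescued. Control flies carried btl>DHR78 alone, and the labels describe them as genetically matched. All were females aged 1 week, raised on a diet with 8% yeast and 9% sugar, and polyA RNA was taken from whole animals. There were 4 libraries per genotype, each from 2 pooled collections of 12 females, so that every measurement is an average over tissues. Fewer cells of a type and less RNA per cell cannot be told apart in such samples.

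Libraries held 19544675 to 33054191 counts, and 3 counts, used as the floor, corresponded to 0.0915 to 0.155 CPM (counts per 1000000 of the TMM-scaled library total). Of 10525 genes tested with edgeR's quasi-likelihood test, 8.46% were higher and 11.1% lower in the mutant at a Benjamini-Hochberg adjusted p under 0.05. Hr78 was at 71.6 ± 1.71 CPM in the mutant and 123 ± 4.22 CPM in the control (4 libraries each, SD; log2 fold change -0.79, adjusted p 4.90e-06), and reads of the transgene are not separated from those of the chromosomal gene. Mutant replicate 2 stood apart from the other 7 libraries in male transcripts. Its summed level of 18 genes of the male accessory gland and ejaculatory bulb was 299 CPM, against 37.4 to 41.5 CPM in the other mutants and 36.0 to 39.9 CPM in the controls. Outside mutant replicate 2 nearly all of this sum came from Acp95EF. That gene was at 35.5 to 38.4 CPM in the controls, 37.0 to 40.8 CPM in the other mutants and 57.8 CPM in mutant replicate 2. All 18 were highest in that library, as were 18 of 22 testis genes (sum 112 CPM, against 9.51 to 11.3 CPM in the other mutants and 10.6 to 12.5 CPM in the controls). In every control 11 of the 18 and 13 of the 22 were at or under 3 counts, and EbpII and SP, which encode an ejaculatory bulb protein and the sex peptide, had no count in any other library. The male dosage compensation gene msl-2 was at 9.56 to 10.4 CPM in the mutants, replicate 2 being the lowest, and 10.3 to 12.2 CPM in the controls. The counts of members called are therefore also given without mutant replicate 2.

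Members of the clan changed in both directions. Of the 28, 9 (32.1%) rose in the mutant, against 8.46% of all tested genes. Falls numbered 4 (14.3%), a share near the 11.1% of all tested genes that were lower. Together 13 of 28 (46.4%) changed, against 19.6% of all tested genes, and the other 15 did not pass the threshold. The rises were led by Cyp4d21, a gene known as sex-specific enzyme 1 with transcripts enriched in male heads, and by Cyp312a1, followed by Cyp313a1, Cyp4d14, Cyp4p1, Cyp4e1, Cyp311a1, Cyp4d1 and Cyp4d20. The genes that fell were Cyp4e3, which is known for a part in tolerance of the insecticide permethrin in the Malpighian tubules, Cyp313b1, Cyp4d8 and Cyp4e2. At least 1.5-fold changes were found for 8 of the rises, against 2.31% of all tested genes, and for 3 of the falls, against 2.69%. The median log2 fold change of the 28 members was -0.03, against 0.01 over all tested genes. The median of its absolute value was 0.45, against 0.12. The tested genes were not matched to the members in level, and the part of low counts in the larger value was not tested.

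**Figure D1:**
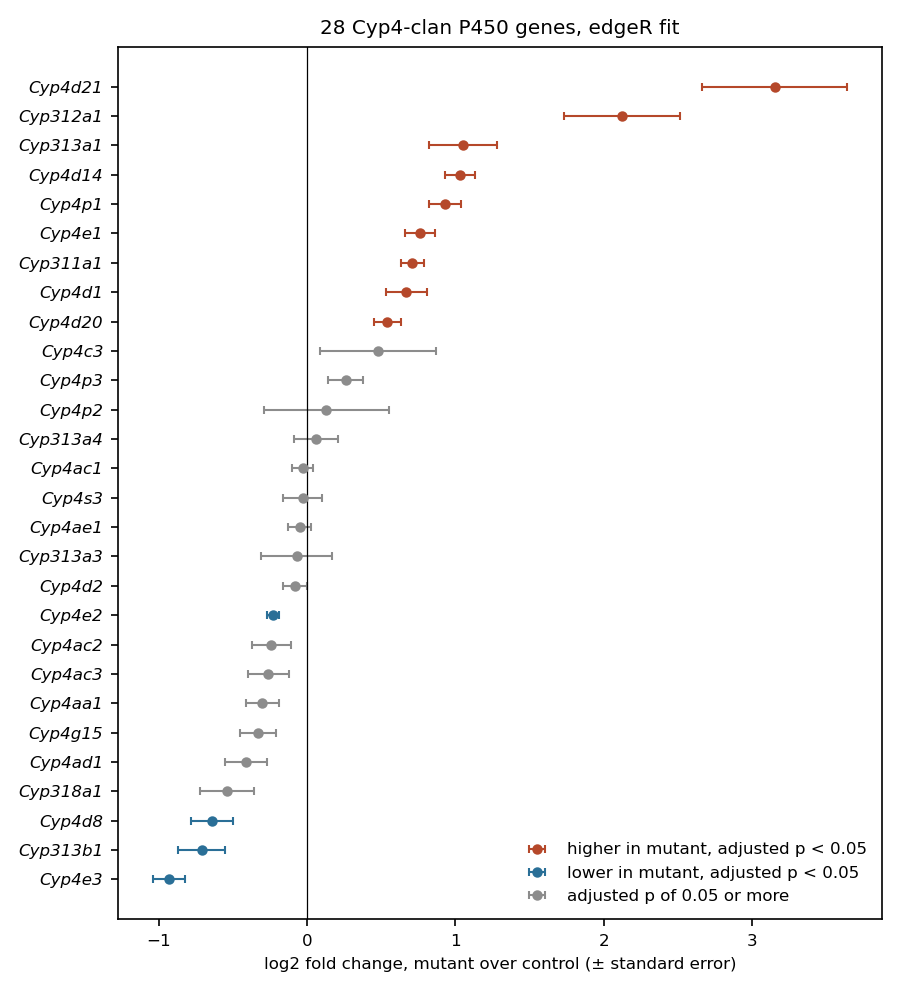
Log2 fold change of each of the 28 members, mutant over control (x axis, points, with bars for the standard error of the edgeR fit), in order of size from top to bottom. The 9 members that rose lie at 0.54 to 3.15, the 4 that fell at -0.93 to -0.23, and grey points did not pass the threshold.

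Without mutant replicate 2, 8 members rose, against 6.80% of all tested genes in that fit, and 4 fell, against 9.37%. Of the 13 members called with all libraries, 12 were called without it. The call lost was that of Cyp313a1, at an adjusted p of 0.0510. With upper quartile scaling, which moved the split of all calls to 14.2% higher and 8.29% lower, the members still numbered 9 higher and 4 lower, and all 13 calls were kept.

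Every mutant library lay above every control library for 9 members, against 11.7% of all tested genes, and below for 6, against 13.2%; in either direction this held for 15 members, against 25.0% of all tested genes. The summed level of the 28 members was 418, 450.4, 449 and 389 CPM in mutant replicates 1 to 4 and 420, 376, 391 and 371 CPM in control replicates 1 to 4. These ranges overlapped, with mutant replicate 1 below control replicate 1 and mutant replicate 4 below control replicates 1 and 3. Cyp4e2 made up the largest part of the sum in both genotypes.

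Per kilobase of annotated exon, Cyp4e2 had the highest level of the 28, at 45.6 ± 2.34 CPM per kilobase in the mutant and 53.6 ± 0.851 in the control. Next in the mutant came Cyp313a1 at 22.7 ± 1.41, Cyp4d20 at 16.3 ± 1.19 and Cyp4p1 at 14.8 ± 1.95 CPM per kilobase. In the control the next were Cyp4ac1 at 12.2 ± 0.781, Cyp4d20 at 11.2 ± 1.34, Cyp313a1 at 10.9 ± 3.93, Cyp4s3 at 10.5 ± 1.54 and Cyp4e3 at 10.03 ± 0.639 CPM per kilobase, and each of these 5 lay within the summed SDs of its neighbour in that order. At the low end, Cyp4c3 was at 0.360 ± 0.0762 CPM per kilobase in the mutant and 0.258 ± 0.168 in the control. Cyp4d21 held rank 23 of 28 in the mutant and rank 27 in the control, while Cyp4e3 held rank 17 in the mutant and rank 6 in the control. For scale, the excluded relative Cyp4g1, which makes cuticular hydrocarbons in oenocytes, stood at 3253 CPM per kilobase in the mutant and 2620 in the control.

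Of the 6 Cyp4d genes, 4 rose and 1 fell. Cyp4d21 (CG6730, on arm 2L) was at 2.96, 7.88, 3.98 and 4.15 CPM in mutant replicates 1 to 4 and at 0.112, 0.586, 0.782 and 0.723 CPM in control replicates 1 to 4. These levels came from 97, 215, 101 and 96 counts in the mutant and from 3, 13, 16 and 14 counts in the control, so the control level is imprecise and that of control replicate 1 is at the floor. Mutant replicate 2 was the highest library, and the lowest mutant library was still above the highest control. The log2 fold change was 3.15 ± 0.49 (SE, adjusted p 0.00336). Without mutant replicate 2 it was 2.79 ± 0.37 (SE, adjusted p 0.00140), from a mutant mean of 3.70 ± 0.645 CPM (SD, n = 3). In those 3 mutant libraries the sums of male markers overlapped those of the controls, the accessory gland and bulb sum being mostly Acp95EF. The part of male transcripts in the levels of Cyp4d21 was not tested.

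**Figure D2:**
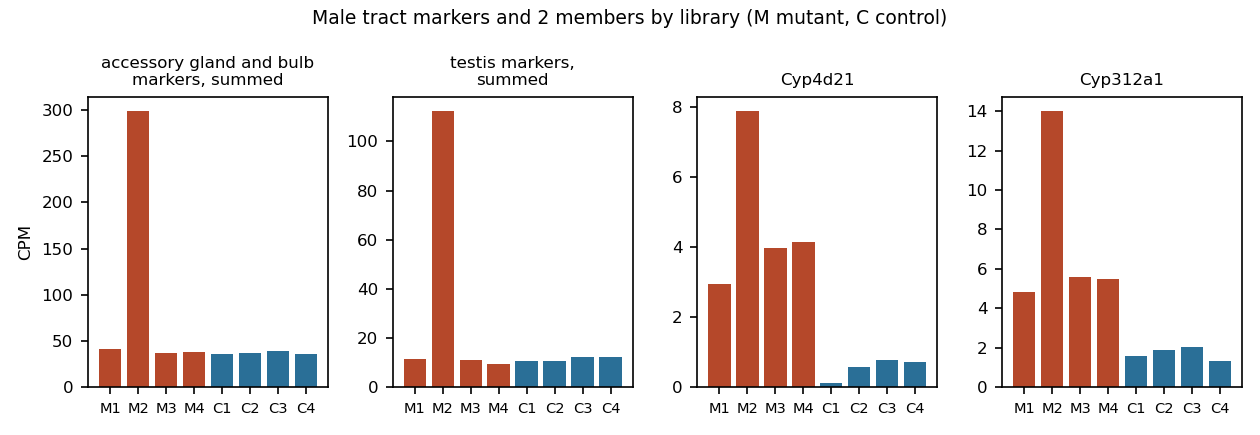
Summed CPM of 18 male accessory gland and ejaculatory bulb genes and of 22 testis genes, and CPM of Cyp4d21 and Cyp312a1, in each library (bars, mutant replicates M1 to M4 left and control replicates C1 to C4 right). Mutant replicate 2 is highest in all 4 panels (299, 112, 7.88 and 14.0 CPM), while the other 3 mutants exceed every control for Cyp4d21 and Cyp312a1 and overlap the controls in both marker sums. Outside mutant replicate 2 the first sum is mostly Acp95EF.

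Cyp4d14 (CG3540, on X) stood at 14.9, 17.8, 15.7 and 14.4 CPM in the mutant libraries and at 6.71, 8.12, 8.26 and 7.64 CPM in the control libraries. The genotypes were far apart relative to the spread within each, and the log2 fold change was 1.03 ± 0.10 (SE, adjusted p 9.18e-05, the smallest of the 28). An antisense RNA gene, asRNA:CR45479, covers 1629 of the 1694 exonic bases of Cyp4d14 in the Release 6 annotation, and since use of strand is not given in the sources used here, reads of the pair cannot be told apart. Cyp4d1 (CG3656, on X) was at 22.2, 17.6, 25.7 and 17.2 CPM in the mutant libraries and at 15.6, 12.2, 12.1 and 12.0 CPM in the control libraries. Its lowest mutant libraries came close to control replicate 1, and its log2 fold change was 0.67 ± 0.14 (SE, adjusted p 0.0102). Cyp4d20 (CG16761, on 3L) was at 29.7 ± 2.17 CPM in the mutant and 20.4 ± 2.44 CPM in the control (log2 fold change 0.54, adjusted p 0.00238).

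Cyp4d8 (CG4321, on 3L) was the Cyp4d gene that fell. It had 5.52, 8.02, 7.30 and 5.45 CPM in the mutant libraries and 11.3, 9.43, 10.6 and 9.65 CPM in the control libraries, with no overlap. The log2 fold change was -0.64 ± 0.14 (SE, adjusted p 0.00839). The sixth, Cyp4d2 on X, was at 16.5 ± 1.41 CPM in the mutant and 17.4 ± 1.01 CPM in the control, and its adjusted p was 0.531; an antisense gene, asRNA:CR44690, covers most of its exonic bases.

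All 3 Cyp4e genes passed the threshold, 1 as a rise and 2 as falls. Cyp4e3 (CG4105, on 2L) was at 7.84, 10.3, 11.1 and 8.73 CPM in the mutant libraries and at 17.4, 19.8, 17.3 and 17.9 CPM in the control libraries. Its mutant mean was 52.5% of the control mean, the lowest share among the members, with a log2 fold change of -0.93 ± 0.11 (SE, adjusted p 3.34e-04). Cyp4e1 (CG2062, on 2R) moved the other way, at 9.61, 10.9, 12.4 and 11.4 CPM in the mutant libraries and 6.56, 6.22, 6.50 and 6.76 CPM in the control libraries. The control libraries had an SD of 0.222 CPM and all lay below the mutants, and the log2 fold change was 0.76 ± 0.10 (SE, adjusted p 5.43e-04). Cyp4e1 shares 82 exonic bases with Mal-A1, a maltase gene on the other strand, which was at 85.4 ± 14.8 CPM in the mutant and 54.0 ± 13.8 CPM in the control (adjusted p 0.0786), and the part of shared reads in the result was not tested. Cyp4e2 (CG2060, on 2R), next to Cyp4e1, was at 80.9, 89.3, 90.6 and 84.8 CPM in the mutant libraries and at 104, 101, 100.2 and 102 CPM in the control libraries. This small difference was larger than the spread within the genotypes, with a log2 fold change of -0.23 ± 0.04 (SE, adjusted p 0.00501).

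Of the 3 Cyp4p genes, which lie side by side on 2R, 1 rose. Cyp4p1 (CG10842) was at 22.6, 23.9, 29.7 and 23.3 CPM in the mutant libraries and at 12.3, 14.2, 14.6 and 11.04 CPM in the control libraries. The groups did not overlap, and the log2 fold change was 0.93 ± 0.11 (SE, adjusted p 4.00e-04). Cyp4p3 was at 11.4 ± 1.93 CPM in the mutant and 9.54 ± 0.851 CPM in the control, with an adjusted p of 0.168. Cyp4p2 varied widely between libraries of the same genotype. It had 20.5, 12.7, 10.3 and 6.66 CPM in mutant replicates 1 to 4 and 5.56, 12.1, 16.3 and 12.4 CPM in control replicates 1 to 4, so that the highest library was 3.07 times the lowest in the mutant and 2.93 times in the control, and its adjusted p was 0.857.

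No Cyp4ac gene passed the threshold. Cyp4ac1 was at 19.97 ± 1.30 CPM in the mutant and 20.4 ± 1.30 CPM in the control, Cyp4ac2 at 4.90 ± 0.414 CPM in the mutant and 5.80 ± 0.879 CPM in the control, and Cyp4ac3 at 7.64 ± 1.39 CPM in the mutant and 9.12 ± 1.25 CPM in the control. Their adjusted p ran over 0.219 to 0.791. They lie side by side on 2L, in the span of tkv on the other strand, and share no exonic base with it.

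Of the 4 Cyp313 genes, 1 rose and 1 fell. Cyp313a1 (CG3360, on 3R) was at 35.4, 38.1, 39.5 and 34.5 CPM in the mutant libraries and at 26.1, 11.4, 18.7 and 14.5 CPM in the control libraries. The spread lay on the control side, where replicate 1 was the highest, and the log2 fold change was 1.05 ± 0.23 (SE, adjusted p 0.0205). Its call was lost on leaving out control replicate 4 or any 1 of mutant replicates 2 and 3 (adjusted p 0.0510 to 0.0532), with log2 fold changes of 0.97 to 1.03. Cyp313b1 (CG9716, on 3R) was at 2.81, 2.31, 2.60 and 2.20 CPM in the mutant libraries and 4.55, 4.78, 3.37 and 3.51 CPM in the control libraries. All mutant libraries were below the controls, and the log2 fold change was -0.71 ± 0.16 (SE, adjusted p 0.0123). Cyp313a3 was at 1.95 ± 0.416 CPM in the mutant and 2.03 ± 0.601 CPM in the control, and Cyp313a4 at 4.37 ± 0.756 CPM in the mutant and 4.17 ± 0.463 CPM in the control (adjusted p 0.870 and 0.804).

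**Figure D3:**
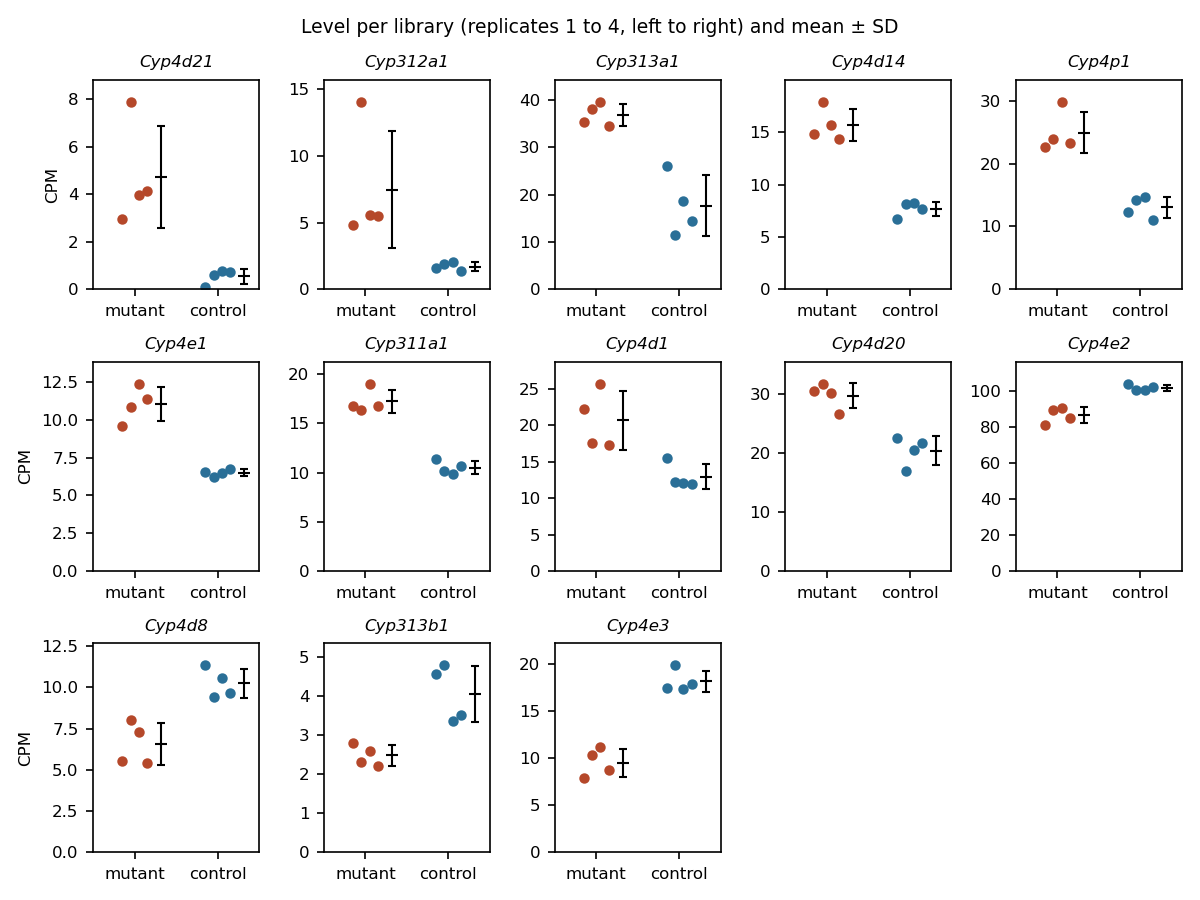
CPM of the 13 members past the threshold in each library (points, replicates 1 to 4 from left to right, mutant left and control right), with mean ± SD beside them; every axis starts at 0. The genotypes do not overlap in any of the 13, and the widest mutant spread relative to the mean is that of Cyp312a1, with mutant replicate 2 at 14.0 CPM and the other mutants at 4.82 to 5.60 CPM.

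Among the 9 members that stand alone in their subfamily in the list, 2 rose and none fell. Cyp312a1 (CG5137, on 3L) was at 4.82, 14.0, 5.60 and 5.49 CPM in the mutant libraries and at 1.57, 1.89, 2.05 and 1.34 CPM in the control libraries. Mutant replicate 2 was 2.55 times the median of the other mutants, the largest such ratio of the 28 members, and the part of male transcripts in that library's value was not tested. The log2 fold change was 2.12 ± 0.39 (SE, adjusted p 0.00849), and without that library it was 1.62 ± 0.16 (SE, adjusted p 1.67e-04). Cyp311a1 (CG1488, on X), which is known for a part in lipid distribution and microvilli of the larval anterior midgut, was at 16.8, 16.4, 19.0 and 16.8 CPM in the mutant libraries and at 11.4, 10.1, 9.82 and 10.7 CPM in the control libraries. It did not overlap between genotypes, with a log2 fold change of 0.71 ± 0.08 (SE, adjusted p 2.47e-04).

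Several members of this group were lower in the mutant on average without passing the threshold. Cyp318a1 was at 1.59 ± 0.253 CPM in the mutant and 2.31 ± 0.314 CPM in the control (adjusted p 0.0566), and Cyp4ad1 was at 12.4 ± 0.511 CPM in the mutant and 16.5 ± 3.80 CPM in the control (adjusted p 0.0585). For both, all mutant libraries lay below all control libraries. Cyp4aa1 was at 11.8 ± 1.10 CPM in the mutant and 14.5 ± 2.01 CPM in the control (adjusted p 0.0760), and shares 334 exonic bases with Strn-Mlck on the other strand. Cyp4g15, known for its expression in the nervous system, was at 8.01 ± 0.858 CPM in the mutant and 10.1 ± 1.60 CPM in the control (adjusted p 0.0886). Cyp4ae1 was at 16.01 ± 1.17 CPM in the mutant and 16.5 ± 1.52 CPM in the control, and Cyp4s3, which shares 461 exonic bases with Rab3-GEF on the other strand, at 23.7 ± 3.52 CPM in the mutant and 24.1 ± 3.52 CPM in the control (adjusted p 0.728 and 0.904). Cyp4c3 had few counts (4 to 26 per library), with control replicate 3 near the floor. It was at 0.687 ± 0.145 CPM in the mutant and 0.491 ± 0.320 CPM in the control, and a difference was not detectable at this depth (adjusted p 0.418).

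Neighbouring members were compared by the log2 ratio of their CPM within each library, over 10 pairs with at most 2 protein-coding genes between them. For 4 pairs the mutant and control ratios did not overlap. Each of those pairs holds a member already called by the single-gene test, so its separation partly repeats that call. Some of the overlapping pairs also hold a called member. How often neighbouring genes in general separate in this way was not tested. The ratio of Cyp4d14 to Cyp4d2 was -0.07 ± 0.10 in the mutant and -1.18 ± 0.22 in the control, that of Cyp311a1 to Cyp318a1 was 3.45 ± 0.28 in the mutant and 2.19 ± 0.17 in the control, that of Cyp4e2 to Cyp4e1 was 2.97 ± 0.10 in the mutant and 3.96 ± 0.04 in the control, and that of Cyp4p1 to Cyp4p3 was 1.13 ± 0.22 in the mutant and 0.45 ± 0.08 in the control (SD, n = 4 each). Each of the 4 separated pairs had a two-sided exact permutation p of 0.0286, the smallest that 4 libraries against 4 allow. The adjusted p was 0.0714 over the 10 pairs, so none passed after adjustment. With p at its lowest possible value, the adjusted p depended only on how many pairs separated, so this test cannot decide for a single pair. The other 6 pairs overlapped, among them Cyp4d2 to Cyp4ae1 at 0.04 ± 0.13 in the mutant and 0.07 ± 0.09 in the control. Both genes of that pair are covered by asRNA:CR44690, which takes in 2436 of 2467 exonic bases of Cyp4d2 and 1608 of 1822 of Cyp4ae1.

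**Figure D4:**
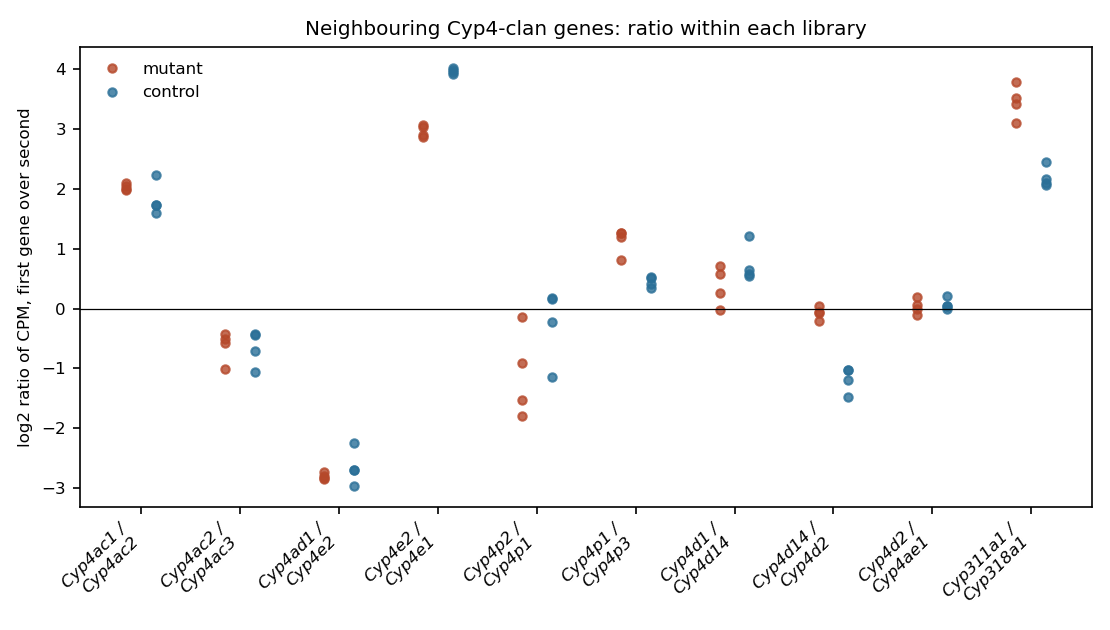
Log2 ratio of the CPM of neighbouring members within each library (y axis, points, mutant left and control right of each position). The 2 genotypes separate for Cyp4e2 to Cyp4e1, Cyp4p1 to Cyp4p3, Cyp4d14 to Cyp4d2 and Cyp311a1 to Cyp318a1, and overlap for the other 6 pairs.

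Among 54 other P450 genes, 10 rose and 10 fell, against 8.46% and 11.1% of all tested genes, with a median log2 fold change of 0.06 and a median absolute value of 0.27. Their 4 smallest adjusted p were those of Cyp6a17 (14.2 ± 0.749 CPM in the mutant and 2.92 ± 0.743 CPM in the control), Cyp12c1 (15.4 ± 1.13 CPM in the mutant and 9.58 ± 0.753 CPM in the control), Cyp12d1-p (1.33 ± 0.260 CPM in the mutant and 2.93 ± 0.520 CPM in the control) and Cyp9c1 (15.3 ± 0.774 CPM in the mutant and 11.1 ± 1.07 CPM in the control). Without mutant replicate 2 the counts were 7 higher and 7 lower. The count of higher genes was 6 without control replicate 3, and that of lower genes was 5 or 6 without control replicate 1, control replicate 3 or mutant replicate 1.

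Of 7 genes listed for electron supply to P450 enzymes, 3 (42.9%) rose in the mutant, against 8.46% of all tested genes, and none fell, against 11.1%. The list was not limited to partners of the Cyp4 clan, and a role of Cyt-b5-r in electron supply was not tested. Cyt-b5-r, a cytochrome b5-related gene, was at 316 ± 15.8 CPM in the mutant and 218 ± 20.3 CPM in the control (log2 fold change 0.53, adjusted p 5.16e-04), and Cyt-b5, the gene of cytochrome b5, was at 329 ± 22.4 CPM in the mutant and 277 ± 12.8 CPM in the control (adjusted p 0.0123). Cpr, the gene of cytochrome P450 reductase, was at 856 ± 101 CPM in the mutant and 709 ± 40.2 CPM in the control (adjusted p 0.0374), and its call was lost without any 1 of control replicates 2, 3 and 4 and mutant replicates 1, 3 and 4, and with no filter on low counts (adjusted p 0.0589 to 0.0974). Of 9 genes of heme synthesis and breakdown, 2 (22.2%) rose, against the same 8.46%, and none fell. Coprox, the gene of coproporphyrinogen oxidase, was at 69.3 ± 2.62 CPM in the mutant and 58.9 ± 4.49 CPM in the control (adjusted p 0.0180, and 0.0524 without control replicate 3).

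Fatty acid oxidation genes, set beside the clan because mammalian relatives act on fatty acids, numbered 4 lower (25.0%, against 11.1% of all tested genes) and 1 higher (6.25%, against 8.46%) of 16. CG4586, an acyl-CoA oxidase gene, was at 68.8 ± 3.76 CPM in the mutant and 93.9 ± 8.99 CPM in the control, and whd, the gene of carnitine palmitoyltransferase 1, was at 238 ± 12.2 CPM in the mutant and 287 ± 22.5 CPM in the control (adjusted p 0.00149 and 0.0112). Acox57D-d, an acyl-CoA oxidase gene, was at 65.1 ± 1.27 CPM in the mutant and 73.6 ± 2.30 CPM in the control (adjusted p 0.0124). Arc42, an acyl-CoA dehydrogenase gene, was at 20.5 ± 6.17 CPM in the mutant and 46.2 ± 11.3 CPM in the control (adjusted p 0.0234), a call that was lost without control replicates 2, 3 or 4 or mutant replicates 1 or 3 (0.0545 to 0.0669). The gene that rose, named after its values were seen, was Acox57D-p, at 84.9 ± 2.87 CPM in the mutant and 75.4 ± 3.68 CPM in the control (adjusted p 0.0289, and 0.0557 to 0.0744 without control replicates 3 or 4 or mutant replicates 1 or 3). Of 11 regulators of the response to foreign compounds and hormones, usp, the gene of the ecdysone receptor's partner, fell, to 116 ± 4.06 CPM in the mutant against 134 ± 2.59 CPM in the control (adjusted p 0.00383). The other 10 did not pass the threshold, and 1 of 11 (9.09%) is near the 11.1% of all tested genes that were lower.

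Marker genes of tissues that express P450 genes were summed in each library, with no test of the sums. Called genes are named beside the sums, where 8.46% of all tested genes were higher and 11.1% lower. The share lower was 30.0% of midgut, 42.9% of tested fat body and 28.6% of tubule genes. The share higher was 44.4% of oenocyte and 14.3% of tested fat body genes. The summed level of 10 midgut genes was 2303 to 3271 CPM in the mutant and 3875 to 6411 CPM in the control (alphaTry, Jon25Bi and Jon65Aiii lower, none higher), and that of 8 fat body genes was 2632 to 2741 CPM in the mutant and 3049 to 3274 CPM in the control (apolpp, Lsd-2 and Lpin lower and tobi higher of 7 tested). Neither of these sums overlapped between genotypes. Of the midgut control mean of 4811 CPM, alphaTry gave 1550 CPM and Jon65Aiii 2145 CPM. Log2 fold changes were negative for 6 of the 10 midgut genes and positive for 4. For Mal-A1, which was not called, every mutant library lay above every control library. Of the fat body control mean of 3174 CPM, apolpp gave 1846 CPM and Lsd-2 813 CPM. Among the 7 fat body genes tested, 5 had a negative log2 fold change and 2 a positive one. The sum of 9 oenocyte genes was 8367 to 9944 CPM in the mutant and 6758 to 8372 CPM in the control (Cyp4g1, FASN3, CG30008 and CG9458 higher, none lower), of which Cyp4g1 gave 7413 ± 555 CPM in the mutant and 5971 ± 671 CPM in the control. The call of Cyp4g1 (adjusted p 0.0255) was lost without any 1 of control replicates 2 and 4 and mutant replicates 1 and 3 (0.0592 to 0.0822). The sum of 7 Malpighian tubule genes was 241 to 262 CPM in the mutant and 248 to 299 CPM in the control (Irk3 and Oatp58Db lower, none higher). The oenocyte and tubule sums overlapped between genotypes. For all 4 lists, their part in the changes of the Cyp4-clan genes was not tested. Yolk and ovary genes, 9 in number, overlapped at 29794 to 36952 CPM in the mutant and 26986 to 45778 CPM in the control, and none passed the threshold.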

How the data were processed

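For 8 libraries of whole females, the authors deposited read counts by gene, as whole numbers without normalization. Per the submitters' processing notes, the build dm3 and the tool DESeq are named, with no role given. Which aligner, counter and annotation were applied, and whether reads were counted by strand, is not given in the sources used here. Columns were matched to samples by name (0 unmapped), groups and replicate numbers come from the titles, and a row with no gene (0.0154% to 0.0176% of counts) was left out. CG numbers were matched to symbols through RefSeq's Release 6 table (11482 by locus tag, 456 by synonym; 84 fitted several genes and 60 none). Arms and neighbours come from the same RefSeq table, and exonic lengths and shared exonic bases from the Ensembl annotation of Release 6. Since the build differs, no coordinates are given.

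R 4.3.3 with edgeR 4.0.16 was used: filterByExpr (minimum count 10), TMM scaling and the robust quasi-likelihood test, two-sided, with Benjamini-Hochberg adjustment over all 10525 genes at 0.05. Standard errors were taken as the size of the log2 fold change over the square root of F. Alternatives were RLE and upper quartile scaling, no filter, DESeq2 1.42.0, limma 3.58.1 (voom with quality weights), a replicate block and leaving out each library. The fit was tested on simulated data. Libraries of 1 genotype differed beyond sampling noise (chi-square per degree of freedom 10.8 to 37.5). They are separate pools by the labels. Floors cover counting error only.

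Members and lists were chosen with earlier results of these data known. All members are named, those with at least 1.5-fold changes and Cyp4d21 and Cyp4d14 by library, and Cyp4e2 by library as well, chosen after its values were seen. Of the pathway lists, up to 4 called genes with the smallest adjusted p are named, and marker lists are given by sums and, after their values were seen, the names of called genes. Of the listed genes, 10 were not analysed here. Values of 1 called gene of the heme list are not reported here. The neighbour comparison was added after values were seen.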

Additional observations from a re-analysis of the deposited data

Results flagged for a closer look

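Of 92 groups of 4 libraries checked for 46 genes and sums, 3 had a library far from the other 3, where chance gives about 1 in 20 groups. Cyp312a1 was at 14.0 CPM in mutant replicate 2 and at 4.82 to 5.60 CPM in the other mutants. Cyp311a1 was at 19.0 CPM in mutant replicate 3 and at 16.4 to 16.8 CPM in the other mutants. Cyp4d1 was at 15.6 CPM in control replicate 1 and at 12.0 to 12.2 CPM in the other controls. All 3 genes kept their calls without those libraries.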

How the results depend on the processing

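Across 14 alternatives the members numbered 8 or 9 higher and 4 or 5 lower, and 12 of the 13 called members kept their direction and call in every one, the exception being Cyp313a1. Leaving out each library in turn gave 8 to 9 members higher and 4 to 5 lower, 6 to 11 other P450 genes higher and 5 to 9 lower, 606 to 760 of all genes higher and 851 to 986 lower, and a difference in the members' summed level, mutant minus control, of 29.1 to 49.6 CPM (37.1 CPM with all libraries). Hr78 kept its call throughout. With upper quartile scaling 1499 of all genes were higher and 872 lower (890 and 1173 with TMM), which raised the share of calls that were higher to 63.2%, against 43.1%, and 6 other P450 genes were lower, against 10; the cause was not tested.

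Some uncalled members changed sign in the log2 fold change under an alternative, each time with an adjusted p of at least 0.694. With upper quartile scaling these were Cyp4ac1 (0.01) and Cyp4s3 (0.02), and with limma voom Cyp313a3 (0.0024) and Cyp4p2 (-0.06). On leaving out each library in turn, the log2 fold change ran over -0.09 to 0.02 for Cyp4ae1, -0.20 to 0.12 for Cyp313a3, -0.08 to 0.00042 for Cyp4ac1, -0.09 to 0.08 for Cyp4s3, -0.22 to 0.34 for Cyp4p2 and -0.06 to 0.14 for Cyp313a4. Uncalled members that passed under an alternative were Cyp318a1 (0.0370 with limma voom, 0.0377 without mutant replicate 1), Cyp4ad1 (0.0233 without control replicate 4) and Cyp4g15 (0.0457 with the replicate block).

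Same-numbered libraries of the genotypes correlated over 0.1 in their deviations from the group means for only some numbers (0.244, -0.015, -0.025 and 0.131), so they were taken to share only a number; with the replicate block 9 members were higher and 5 lower, and 1014 of all genes higher and 1391 lower. Depth limits Cyp4c3 and the control level of Cyp4d21.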

Other observations

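By chromosome arm, the members on X had 3 rises and no fall among 8, where 117 of all 1714 tested genes of that arm rose and 273 fell. On 3L, the arm of Hr78, all 3 members passed the threshold, with 2 rises (Cyp312a1 and Cyp4d20) and 1 fall (Cyp4d8), where 190 of 2035 tested genes rose and 239 fell. On 2L 1 of 5 rose and 1 fell, where 148 of 1865 tested genes rose and 166 fell. On 2R 2 of 7 rose and 1 fell, where 195 of 2120 tested genes rose and 208 fell. On 3R 1 of 5 rose and 1 fell, where 216 of 2576 tested genes rose and 251 fell.

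Within the mutant, the highest library was replicate 3 for 13 members, replicate 2 for 10 and replicate 1 for 5. Replicate 4 was the highest for none of the 28.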
